A study of Mus musculus with 45 samples.

Results

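A set of 10 genes of the H3K9 methylation and HP1 machinery other than EHMT2 were followed through an RNA-seq study of mouse embryonic stem cells (mESCs). They were picked by name, as factors that could act beside EHMT2 or differ in 2-cell-like cells (2CLCs), and all 10 were found among the 55401 genes of the deposited tables. They are the methyltransferase gene Setdb1 with its partner Atf7ip and its recruiter Trim28, the methyltransferase genes Suv39h1 and Suv39h2, the HP1 genes Cbx1, Cbx3 and Cbx5, and the silencing factors Mphosph8 and Morc3.

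The series held 45 libraries in 15 groups of 3, from 4 experiments that were each normalized separately. In 3 of them the cells carried a homozygous EHMT2-dTAG allele, in which the endogenous Ehmt2 gene encodes EHMT2 fused to the FKBP12F36V degron with an HA tag and an mCherry reporter, in KH2 mESCs on a C57BL/6J x 129S1 background. The controls of these experiments carried the same allele and received DMSO, so every contrast with dTAG, the degrader that removes the tagged protein, compared cells of 1 genotype. A time course collected 3 clones after 24 h or 7 d of DMSO or dTAG. By their labels the same 3 clones were used in a washout experiment, so the times are not independent sets of clones. It collected them after 15 d of DMSO, after 15 d of dTAG, or after 7 d of dTAG followed by 8 d of DMSO. In the third experiment EHMT2-dTAG cells with a MERVL-GFP reporter, which marks 2CLCs, received DMSO or dTAG for 72 h and were sorted into GFP-negative mESCs and GFP-positive 2CLCs. The fourth treated J1 wild-type (WT) and DPPA4 knockout (KO) mESCs, which carry no degron, for 48 h with DMSO or with UNC0638, a small-molecule inhibitor of the EHMT1 and EHMT2 enzymes. Cells were grown on feeder fibroblasts in serum and LIF, and the study's methods call the WT and KO replicates clonal lines.

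H3K9 methylation is laid down by several enzymes. SETDB1 adds trimethylation at retroelements, where the corepressor TRIM28 (KAP1) brings it through KRAB zinc-finger proteins and ATF7IP keeps it in the nucleus, while SUV39H1 and SUV39H2 act mostly at pericentromeric repeats. HP1 proteins, encoded by Cbx5 (HP1 alpha), Cbx1 (HP1 beta) and Cbx3 (HP1 gamma), read the mark. MPHOSPH8 is the chromodomain subunit of the HUSH complex and MORC3 is an ATPase that represses retroelements.

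Tables of the time course, the washout and the sorted cells held only the mean of each group, as the authors' DESeq2-normalized counts, so their 11 groups have no replicate error here and no test. Their comparisons are given as a log2 ratio, which is the log2 of 1 group mean plus 1 over the other plus 1, among genes whose 2 means averaged at least 10, and are read against the share of all such genes that passed 1.5-fold in either direction. The DPPA4 experiment held every library, at 8399885 to 12710949 gene reads each, and was tested with limma over 17258 genes with Benjamini-Hochberg adjustment. The labels were checked first on Dppa4, which had normalized counts of 700, 868 and 920 in the WT DMSO libraries and 726, 775 and 772 in the WT UNC0638 libraries and was listed at 0 in all 6 KO libraries. The summed level of 10 2C marker genes checked the sort: its group mean was 556 in DMSO mESCs and 103800 in DMSO 2CLCs. With dTAG it was 6774 in mESCs and 178381 in 2CLCs, so the GFP-negative dTAG cells held more 2C RNA than the GFP-negative DMSO cells. The part of this in the ratios with dTAG was not tested. In these bulk values fewer cells of a type and less RNA per cell cannot be told apart.

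On GRCm38, by the GENCODE vM21 annotation, the plus strand holds Trim28 at chr7:12999114-13031035, Atf7ip at chr6:136506167-136610862, Cbx1 at chr11:96789127-96808640, Cbx3 at chr6:51470360-51483704, Morc3 at chr16:93832121-93876073 and Mphosph8 at chr14:56668248-56697430. The minus strand holds Setdb1 at chr3:95323525-95357202, Suv39h1 at chrX:8061171-8074760, Suv39h2 at chr2:3455815-3475031 and Cbx5 at chr15:103191544-103239816. All 10 genes have a promoter entry in RefSeq (build GRCm38.p6, 250 bases before to 50 after the start). The 4 shown belong to the genes with the highest or the lowest log2 ratios of 2CLCs to mESCs among the 10. Atf7ip (chr6:136518601-136518900, plus strand) and Trim28 (chr7:13023902-13024201, plus strand) belong to the genes that were higher in 2CLCs. Suv39h2 (chr2:3474937-3475236, minus strand) and the upstream entry of Cbx5 (chr15:103239803-103240102, minus strand) belong to those that were lower. Sequences run 5′ to 3′ on the strand of the gene, and capitals mark matches to any of the motifs listed after them.
Atf7ip: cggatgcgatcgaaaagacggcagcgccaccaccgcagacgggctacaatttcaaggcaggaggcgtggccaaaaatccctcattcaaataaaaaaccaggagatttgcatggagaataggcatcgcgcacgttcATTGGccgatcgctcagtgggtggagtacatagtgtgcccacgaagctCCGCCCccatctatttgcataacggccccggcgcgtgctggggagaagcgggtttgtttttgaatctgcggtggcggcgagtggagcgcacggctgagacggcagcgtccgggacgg
Trim28: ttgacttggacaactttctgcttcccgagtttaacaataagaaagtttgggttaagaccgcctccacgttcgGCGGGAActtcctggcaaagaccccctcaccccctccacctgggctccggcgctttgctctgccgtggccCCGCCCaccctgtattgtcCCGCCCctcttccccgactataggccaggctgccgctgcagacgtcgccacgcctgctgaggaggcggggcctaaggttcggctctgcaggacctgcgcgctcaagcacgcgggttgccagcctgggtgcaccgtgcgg
Suv39h2: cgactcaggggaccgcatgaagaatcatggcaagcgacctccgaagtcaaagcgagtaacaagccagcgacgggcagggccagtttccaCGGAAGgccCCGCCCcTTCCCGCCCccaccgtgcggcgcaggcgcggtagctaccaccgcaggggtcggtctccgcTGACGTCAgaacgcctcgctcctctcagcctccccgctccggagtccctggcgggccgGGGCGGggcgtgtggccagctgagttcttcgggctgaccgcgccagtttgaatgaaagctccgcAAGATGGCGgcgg
Cbx5: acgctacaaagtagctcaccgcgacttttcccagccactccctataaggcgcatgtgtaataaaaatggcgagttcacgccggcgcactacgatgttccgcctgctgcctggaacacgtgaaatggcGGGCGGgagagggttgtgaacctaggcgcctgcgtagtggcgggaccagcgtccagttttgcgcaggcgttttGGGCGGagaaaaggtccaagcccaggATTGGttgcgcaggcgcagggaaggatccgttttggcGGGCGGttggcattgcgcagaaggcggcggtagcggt
The motifs searched on both strands were the GC box GGGCGG, held by 35.7% of all 32851 promoters of this length, CCAAT (37.4%), the ETS core CGGAAG (16.9%), the E2F-type GCGGGAA (4.60%), the NRF1-type GCATGCGC (2.71%), the cyclic AMP response element TGACGTCA (1.79%) and the YY1-type AAGATGGCG (1.40%). Suv39h2 held 5 of these 7 motifs, with 3 GC boxes, 1 of which overlaps the E2F-type match in 1 run of capitals. Cbx5 held 3 GC boxes and 1 CCAAT, Trim28 held 2 GC boxes and 1 E2F-type match, and Atf7ip held 1 GC box and 1 CCAAT. All 13 promoter entries of the 10 genes had 8 to 37 CG dinucleotides, against a median of 7 over all promoters. A match to these letters is not evidence of binding.

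In the sorted cells, SETDB1's partner genes stood higher and SUV39H2 and HP1 alpha lower in 2CLCs than in mESCs, under both treatments. Atf7ip had group means of 906 in DMSO mESCs, 1909 in DMSO 2CLCs, 779 in dTAG mESCs and 1569 in dTAG 2CLCs, so both 2CLC means lay above both mESC means. Its log2 ratio of 2CLCs to mESCs was 1.07 in DMSO and 1.01 in dTAG. Trim28 had means of 7056, 10262, 8316 and 12629 in the same order, again with both 2CLC groups above both mESC groups. Its log2 ratio was 0.54 in DMSO, within 1.5-fold, and 0.60 in dTAG, which passed. Setdb1 itself had means of 782, 1011, 831 and 1158, with log2 ratios of 0.37 and 0.48 that stayed within 1.5-fold.

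**Figure D1:**
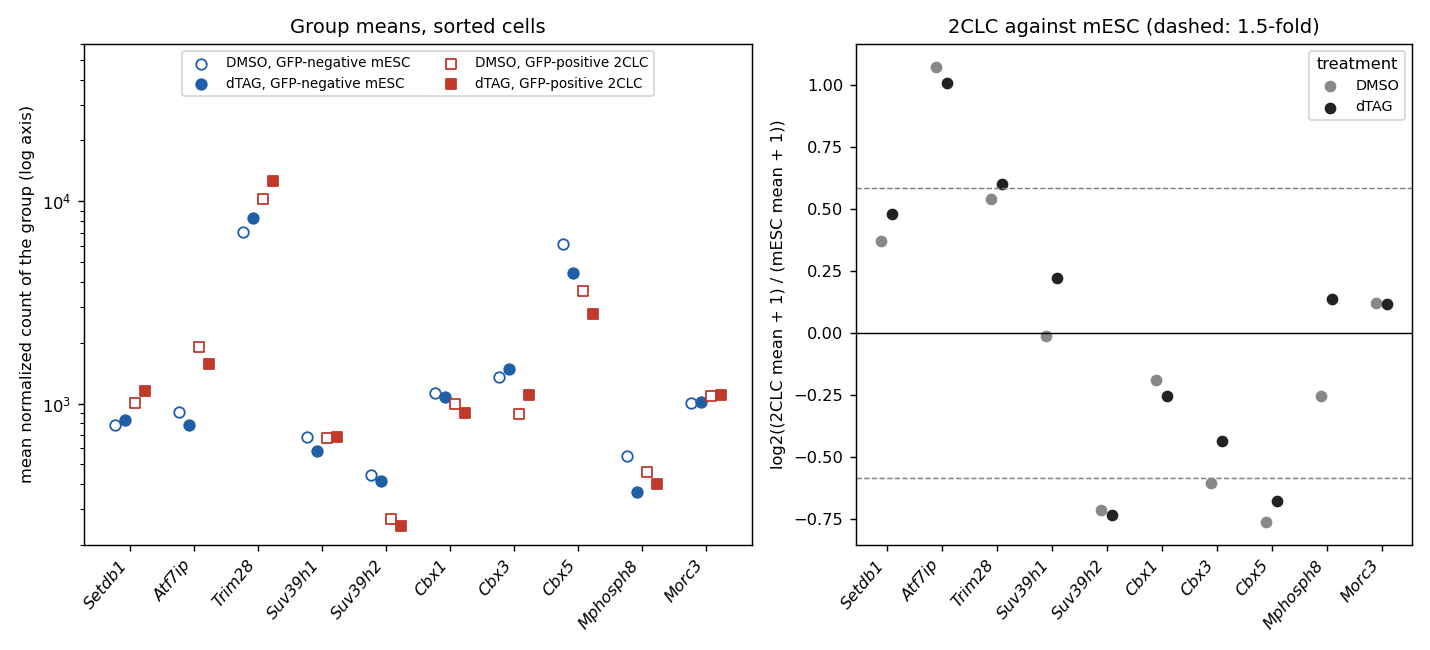
The left panel plots the 4 group means of each gene in sorted cells on a log axis, with circles for GFP-negative mESCs, squares for GFP-positive 2CLCs, open symbols for DMSO and filled ones for dTAG. The right panel plots the log2 ratio of 2CLCs to mESCs for each treatment, where Atf7ip lies above 1 in both and Suv39h2 and Cbx5 lie below the lower dashed line in both.

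Cbx5 went the other way, with means of 6135 in DMSO mESCs, 3614 in DMSO 2CLCs, 4417 in dTAG mESCs and 2760 in dTAG 2CLCs and log2 ratios of -0.76 and -0.68. Suv39h2 had means of 442, 269, 415 and 249 in the same order, with log2 ratios of -0.71 and -0.73. Both genes had lower means in each 2CLC group than in either mESC group. Cbx3 had log2 ratios of -0.60 in DMSO and -0.44 in dTAG, and Cbx1 had -0.19 and -0.25. The paralog Suv39h1 differed little, at -0.01 and 0.22, with means from 582 to 684 over the 4 groups. Morc3 had 0.12 in both treatments, and Mphosph8 had -0.25 in DMSO and 0.14 in dTAG.

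Counted against the background, these differences were not unusual in size for this comparison. In DMSO 4 of the 10 genes passed 1.5-fold, with Atf7ip higher and Suv39h2, Cbx3 and Cbx5 lower, where 42.6% of all 17277 genes did so. Centred on the median of all genes, Cbx3 had -0.57 in DMSO and no longer passed. In dTAG 4 passed, with Atf7ip and Trim28 higher and Suv39h2 and Cbx5 lower, where 39.8% did so. The median log2 ratio of the 10 genes was -0.10 in DMSO and 0.13 in dTAG, beside -0.04 and -0.05 over all genes. Atf7ip exceeded 86.1% and 85.7% of all genes in the same comparisons, Trim28 exceeded 76.7% and 78.9%, and Cbx5 lay above 14.6% and 14.7%. Both contrasts come from the same sort, whose reporter is itself a 2C element.

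Other genes of the pathway were counted from fixed lists in the same comparisons, where 42.6% of all genes passed 1.5-fold in DMSO and 39.8% in dTAG. Among 12 SETDB1 and TRIM28 cofactor genes, 3 were past 1.5-fold higher and 2 lower in DMSO 2CLCs and 3 were higher and 1 lower in dTAG 2CLCs, and the largest was Zfp809, a KRAB zinc-finger gene that directs TRIM28 to retroviral DNA, with means of 210 in DMSO mESCs and 1943 in DMSO 2CLCs. Among 7 other HUSH and MORC genes, 2 were higher and 1 lower in DMSO and 1 was higher and 1 lower in dTAG, with Morc4 at a log2 ratio of 1.75 and Morc1 at -1.15 in DMSO. Among 9 HP1 partner genes, 1 was higher and 2 were lower in DMSO, and 2 were higher and 3 lower in dTAG. Among 10 H3K9 demethylase genes none was higher under either treatment, and 2 were lower in DMSO and 1 in dTAG. Among 10 genes of the EHMT complex and other methyltransferases, 3 were higher and 4 lower in DMSO and 2 were higher and 2 lower in dTAG, led by Mecom, a PR-domain gene, with means of 5.64 in mESCs and 586 in 2CLCs in DMSO. Summed pluripotency markers were 50505 in DMSO mESCs and 29164 in DMSO 2CLCs. Summed feeder markers were 713 and 1521 in DMSO and 1510 and 3673 in dTAG, with at most 1 of 9 at 0 in any sorted group, and their part in the ratios above was not tested.

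Loss of EHMT2 itself was followed by small differences in these genes. In mESCs the 10 log2 ratios of dTAG to DMSO after 72 h ran from -0.58 to 0.24, and in 2CLCs from -0.39 to 0.30, and none passed 1.5-fold where 16.7% of all genes did in mESCs and 19.4% did in 2CLCs. The lowest in mESCs was Mphosph8, with means of 547 in DMSO and 365 in dTAG, and it lay just inside the 1.5-fold line. The same gene had 459 and 402 in 2CLCs. Cbx5 had log2 ratios of -0.47 in mESCs and -0.39 in 2CLCs, so its dTAG mean was the lower one in both sorted populations, while in the unsorted clones its log2 ratio was 0.23 at 24 h and -0.16 at 7 d. Trim28 had 0.24 and 0.30 and Atf7ip -0.22 and -0.28. Summed feeder markers, given above, were also higher with dTAG in both populations, and their part was not tested. The dTAG log2 ratio in 2CLCs minus that in mESCs stayed between -0.07 and 0.39 for the 10 genes and was largest for Mphosph8, a size that 65.1% of all genes fell short of.

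The unsorted clones gave the same picture of small ratios. After 24 h of dTAG the 10 log2 ratios to DMSO ran from -0.24 for Setdb1 to 0.37 for Mphosph8, and after 7 d from -0.29 for Suv39h1 to 0.33 for Trim28. None passed 1.5-fold at either time, where 14.0% and 20.5% of all genes did. The 2C markers, which are no members of this set, summed to 145 and 1736 in DMSO and dTAG at 24 h and to 232 and 5198 at 7 d. Suv39h1, of which 14.6% of exon bases are shared with the antisense gene Gm14820, had means of 1081 and 989 in DMSO and dTAG at 24 h and 970 and 793 at 7 d. Setdb1 had 1624 and 1373 at 24 h, and 1380 and 1432 at 7 d, so its dTAG mean was the lower one at 24 h and the higher one at 7 d.

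Cbx1, Cbx5 and Mphosph8 differed between the DMSO groups of 24 h and 7 d by as much as or more than with dTAG. Mphosph8 had 1042 in DMSO and 1345 in dTAG at 24 h and 1465 and 1304 at 7 d, and its log2 ratio of 7 d to 24 h in DMSO was 0.49. Cbx1 had 2058 and 2478 at 24 h and 2538 and 2914 at 7 d, with 0.30 between the DMSO groups. Cbx5 had 8443 and 9896 at 24 h and 10118 and 9080 at 7 d, with 0.26 between the DMSO groups. None of the 10 passed 1.5-fold between the DMSO groups, where 8.86% of all genes did. Between the same DMSO groups 4 of 8 feeder markers and 3 of 8 pluripotency markers were lower at 7 d by over 1.5-fold, and their part was not tested. These ratios share their DMSO groups with the dTAG ratios.

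**Figure D2:**
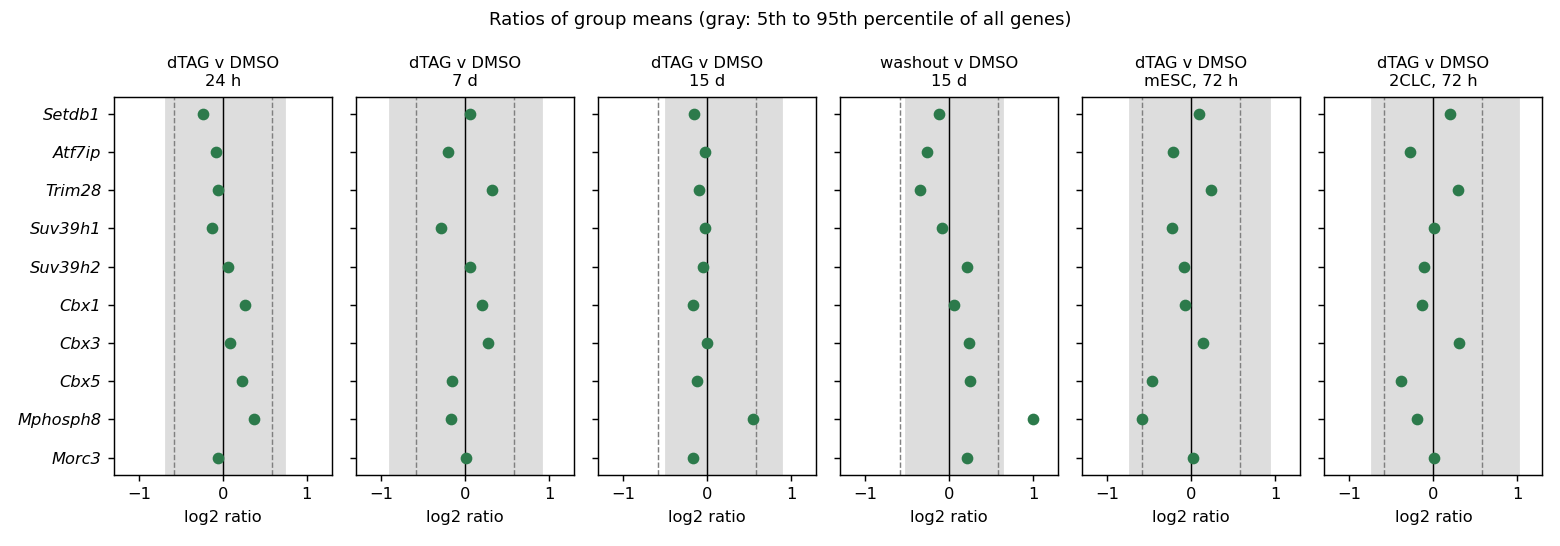
Each panel plots the log2 ratio of group means for the 10 genes in 1 comparison, with the 5th to 95th percentile of all genes in gray and 1.5-fold as dashed lines. The genes lie within 1.5-fold in every panel except for Mphosph8 after washout, at a log2 ratio of 1.00.

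At 15 d the 10 genes were again within 1.5-fold of the DMSO group, where 12.3% of all genes passed. There 9 of them had log2 ratios from -0.17 to just under 0, and Mphosph8 had 0.55. After 7 d of dTAG and 8 d of washout, Mphosph8 had a mean of 733, against 367 in DMSO and 538 in dTAG at 15 d, and it was the 1 gene of the 10 to pass 1.5-fold against DMSO, where 9.79% of all genes did. Its log2 ratio of 1.00 exceeded that of 98.6% of genes. The other 9 ran from -0.35 for Trim28, with means of 13331 in DMSO and 10484 after washout, to 0.24 for Cbx5, with 15887 and 18813. Against 15 d of dTAG no member passed 1.5-fold, where 16.7% of all genes did, and the highest was Mphosph8 at 0.45. Both washout ratios share the washout libraries. All Mphosph8 means of this experiment lay below its DMSO means of 1042 at 24 h and 1465 at 7 d, in tables that were scaled separately. Whether the ratio to DMSO reflects a low 15 d DMSO group was not tested. Summed feeder markers were 3348 in DMSO, 4542 in dTAG and 1403 after washout, and whether this bears on Mphosph8 was not tested. Mphosph8 also shares 10.7% of its exon bases with Gm16973, a gene on the opposite strand, and the reads were counted with the default settings of the counting tool, whose strand option the sources used here do not name. In the pathway lists after washout, 1 of 9 HP1 partner genes and 1 of 10 H3K9 demethylase genes were over 2-fold higher than in DMSO. Of all genes 2.39% passed 2-fold in either direction. The list genes were Atrx, a chromatin remodeler that partners HP1, with a log2 ratio to DMSO of 1.15, and Kdm7a, a demethylase gene, with 1.23. The median log2 ratios of these lists were -0.13 and -0.04.

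The order of the levels per exon kilobase had Trim28 at the top and was mixed below. In all 15 groups Trim28 was the highest of the 10, at 1671 to 3495 mean normalized counts per exon kilobase. Cbx5 came next and Cbx1 after it in the control groups of all 4 experiments, at 681 to 1764 and 264 to 1182, with Cbx3 counted without its pseudogenes. With them added, Cbx3 per kilobase of its own exons stood above Cbx1 in 2 of these 4 groups, at 745 against 482 in the 24 h DMSO group and 433 against 264 in DMSO mESCs. Atf7ip was lowest per kilobase in the time course, the washout and the sorted mESC controls, and Suv39h2 was lowest in the WT DMSO group. Exon length here joins all annotated exons of a gene, and that of Atf7ip was the longest of the 10, at 20726 bases. By count Atf7ip was not the lowest, with 1859 in the 24 h DMSO group beside 610 for Suv39h2. Setdb1, Suv39h1, Morc3, Mphosph8 and Cbx3 changed places between experiments. Levels set across experiments come from tables scaled separately, and group means give no spread to say which neighbours differ.

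The count of Cbx3 depends on how reads that also match its pseudogenes were placed. The annotation holds 8 pseudogenes named after Cbx3, whose group means summed to 1237 in DMSO mESCs beside 1356 for Cbx3 itself and to 2875 beside 1590 in the 24 h DMSO group, or 47.7% and 64.4% of the sum. Pseudogenes were searched by name only, so those of Cbx3 or of the other genes under unrelated names were not examined. Cbx3-ps6 had 890 and 1546 of this and Cbx3-ps7 had 330 and 1149. Summed with its pseudogenes, the log2 ratio of 2CLCs to mESCs was -0.61 in DMSO and -0.33 in dTAG. In dTAG against DMSO mESCs the sum gave -0.08 where Cbx3 alone gave 0.14, so the direction there depends on the sum.

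**Figure D3:**
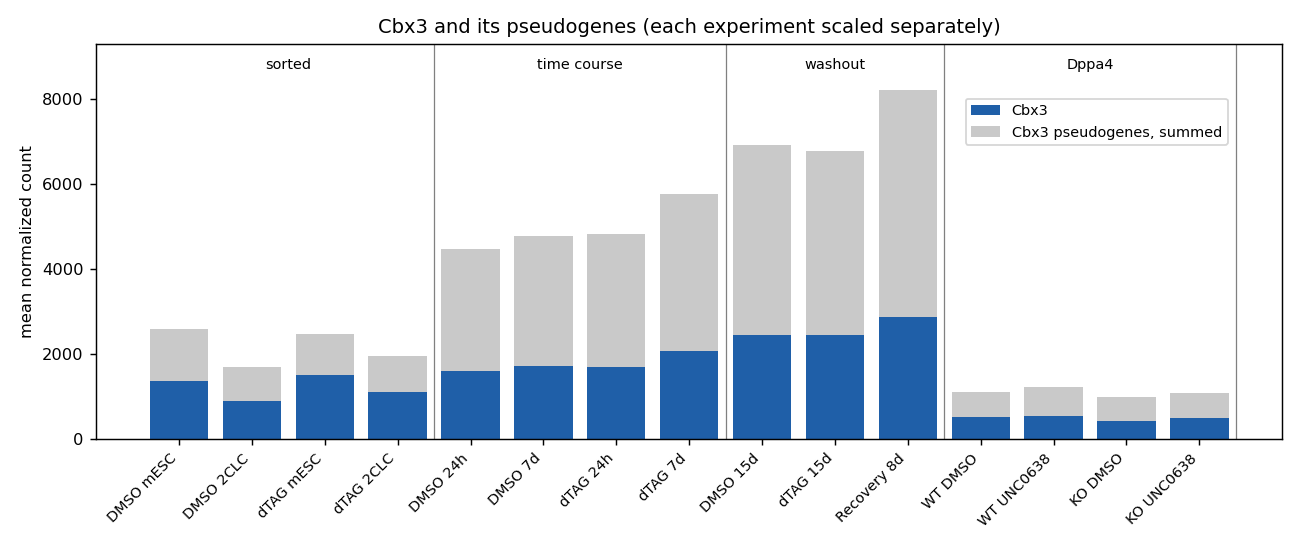
Stacked bars plot the mean normalized count of Cbx3 and of the 8 pseudogenes named after it in every group, for 4 experiments that were scaled separately. The pseudogenes take 39.4% to 65.1% of the sum.

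In the DPPA4 experiment, the HP1 genes Cbx5 and Cbx1 and the methyltransferase gene Suv39h2 had lower means in KO than in WT mESCs. Of all 10 genes, 7 had a log2 fold change of KO to WT below 0 in DMSO and 9 in UNC0638. Suv39h1 had -0.35 and -0.28. Atf7ip went the other way in DMSO, at 0.47 ± 0.24 with an adjusted p of 0.246 (limma), and had -0.40 ± 0.24 in UNC0638. Cbx5 had normalized counts of 6002, 7253 and 7091 in the WT DMSO libraries, 4215, 3636 and 5061 in KO DMSO, 9089, 9639 and 9393 in WT UNC0638 and 5919, 6582 and 2608 in KO UNC0638. Every KO library of Cbx5 lay below every WT library of the same treatment, a separation that was not counted over all genes. In UNC0638 the log2 fold change of KO to WT was -1.01 ± 0.26 (SE) with an adjusted p of 0.0340 (limma). In DMSO it was -0.66 ± 0.26 with an adjusted p of 0.124, which did not pass. Across the 10 genes Cbx5 was the 1 call in UNC0638, where 4.47% of all genes were called, and it also had a log2 fold change of at least 1 in size, as did 3.29% of genes. In DMSO 0 of the 10 were called by limma, where 6.63% of all genes were, with 3 of the 10 under an unadjusted p of 0.05 and 0 called by edgeR or DESeq2.

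The size of the Cbx5 difference in UNC0638 depended on 1 library. Replicate 3 of KO UNC0638 had the lowest count of that gene, and it stood apart from its 2 replicates over all genes, with a chi-square per gene of 53.2 and 39.2 against 11.8 to 25.5 for other pairs. Without it the log2 fold change was -0.59 with an adjusted p of 0.0447, and that in DMSO was called too, at -0.66 with an adjusted p of 0.00733. Leaving out any 1 of the 3 WT UNC0638 libraries ended the call, with log2 fold changes from -1.03 to -0.99 and adjusted p from 0.0762 to 0.126, and edgeR's quasi-likelihood test gave -0.89 with an adjusted p of 0.0540.

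Cbx1 had 1214, 1193 and 1394 in WT DMSO, 745, 766 and 1118 in KO DMSO, 1662, 1571 and 1755 in WT UNC0638 and 784, 1136 and 1401 in KO UNC0638. Its KO libraries lay below the WT libraries of the same treatment without overlap. The log2 fold change was -0.55 ± 0.20 in DMSO with an adjusted p of 0.111 and -0.62 ± 0.20 in UNC0638 with an adjusted p of 0.0925 (limma), and without KO UNC0638 replicate 3 the latter was -0.81 with an adjusted p of 0.0329. Suv39h2 had 234, 285 and 245 in WT DMSO against 164, 114 and 194 in KO DMSO, and 394, 261 and 331 in WT UNC0638 against 260, 173 and 161 in KO UNC0638. These groups did not overlap either, although the nearest UNC0638 libraries stood at 261 in WT and 260 in KO. The log2 fold changes were -0.72 ± 0.25 and -0.74 ± 0.25 with adjusted p of 0.0938 and 0.104, so neither passed. Suv39h2 shares 8.10% of its exon bases with Dclre1c on the opposite strand. Beside these differences, summed feeder markers were 2711 to 4321 in WT and 1618 to 2244 in KO libraries, with 7 of 7 tested feeder markers below 0 in the log2 fold change of KO to WT under both treatments, and the part of feeder RNA was not tested. Of the 10 2C markers, all were at 0 in the KO DMSO libraries and 1 to 5 were at 0 in WT DMSO libraries.

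**Figure D4:**
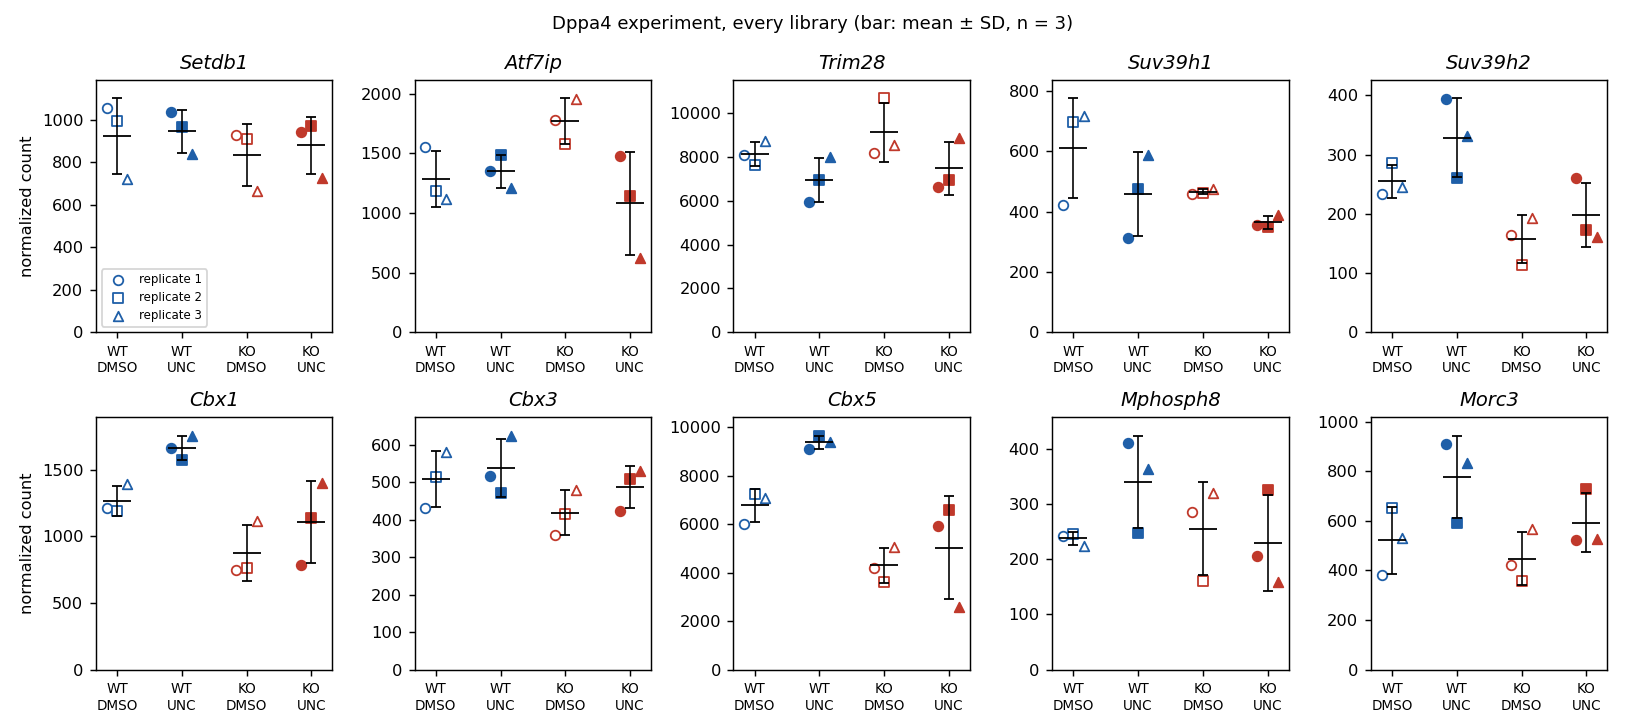
Each panel plots the normalized count of 1 gene in the 12 libraries of the DPPA4 experiment, with a marker shape for each replicate number and the mean ± SD (n = 3) of each group. Cbx5 and Cbx1 lie lower in KO than in WT under both treatments, and replicate 3 of KO UNC0638 is the lowest Cbx5 library.

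UNC0638 moved none of the 10 genes past the threshold when all 12 libraries were fitted together. In WT 0 of the 10 were called by limma, where 0% of all genes were (0 of 17258, with 1504 under an unadjusted p of 0.05, 0 by edgeR and 19 by DESeq2). In KO 0 of the 10 were called by limma, edgeR or DESeq2, where 0.585% of all genes were called by limma, and 1 of the 10 was under an unadjusted p of 0.05. Suv39h1 had 421, 695 and 715 in WT DMSO and 312, 476 and 588 in WT UNC0638, and each replicate was lower under UNC0638. Its log2 fold change in that fit was -0.42 ± 0.23 with an adjusted p of 0.578. Morc3 had 382, 652 and 532 in WT DMSO and 909, 590 and 831 in WT UNC0638, with 0.58 ± 0.24 and an adjusted p of 0.563.

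Libraries of the WT line with the same replicate number deviated together, and with that number as a block in a fit of the 6 WT libraries alone, a choice made after seeing the data, 3 of the 10 genes were called where 7.37% of all genes were. Cbx5 rose by a log2 fold change of 0.47 (95% interval 0.32 to 0.62, adjusted p = 0.00529, limma), and Cbx1 by 0.39 (0.21 to 0.58, adjusted p = 0.0227), each higher in 3 of 3 pairs with groups that did not overlap. How many of all genes had such pairs and groups was not counted. Suv39h1 fell in 3 of 3 pairs with a log2 fold change of -0.42 (-0.67 to -0.17) and an adjusted p of 0.04998, at the edge of the threshold. The other 7 had adjusted p from 0.0855 for Trim28 upward. The same block over all 12 libraries called 0 of the 10 genes in WT. The study's methods describe 3 clonal lines that received either DMSO or UNC0638, which would pair the libraries by design if the number marks the line. The labels do not say what the number marks, so the pairing used here rests on a correlation of deviations, which is only a hint from the data.

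With all 12 libraries fitted, the largest UNC0638 difference of the 10 genes in KO mESCs was that of Atf7ip. It had 1780, 1577 and 1957 in DMSO and 1482, 1145 and 623 in UNC0638, without overlap of the groups, a separation not counted over all genes. The log2 fold change was -0.79 ± 0.24 with an adjusted p of 0.130 (limma), and leaving out replicate 1 of KO UNC0638 gave -1.06 with an adjusted p of 0.0238. Without replicate 3, the lowest Atf7ip library, it was -0.44 with an adjusted p of 0.239. Cbx5 then had the largest difference of the 10 genes, at 0.55 with an adjusted p of 0.102 (limma), where all libraries gave 0.13 ± 0.26. In WT the UNC0638 log2 fold change was 0.08 ± 0.24 for Atf7ip and 0.47 ± 0.26 for Cbx5. The difference of the UNC0638 effects, KO minus WT, was -0.87 ± 0.34 for Atf7ip with an adjusted p of 0.775 (limma), and -0.52 without KO UNC0638 replicate 3, and 0 of the 10 genes differed, where 0% of all genes did (0 by edgeR, 0 by DESeq2 among the 3205 genes it gave an adjusted p, and 1076 under an unadjusted p of 0.05 by limma).

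Setdb1 had normalized counts of 923 ± 178 (SD, n = 3) in WT DMSO, 946 ± 100.04 in WT UNC0638, 835 ± 145 in KO DMSO and 881 ± 135 in KO UNC0638. Trim28 had 8128 ± 542, 6949 ± 1008, 9122 ± 1343 and 7473 ± 1207 in the same order. Cbx3 had 509 ± 74.3, 538 ± 78.0, 419 ± 60.3 and 488 ± 56.6, without its pseudogenes. Mphosph8 had 238 ± 11.4, 339.8 ± 83.3, 255 ± 84.0 and 229.6 ± 86.5, with its lowest library, at 158, in KO UNC0638 replicate 3. The smallest adjusted p of these 4 genes over the 5 limma contrasts was 0.267, for Mphosph8 in KO against WT in UNC0638. These p-values set each group difference against the spread between these libraries.

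In the pathway lists of the DPPA4 experiment 4 genes were called in at least 1 contrast. Of 7 other HUSH and MORC genes, 1 was called, Morc2b, with a log2 fold change of 2.90 ± 0.57 for UNC0638 in KO and an adjusted p of 0.0385 (limma), where 0.585% of all genes were called. For UNC0638 in WT the same 7 genes had log2 fold changes of 0.10 to 0.79, all above 0, and none was called. Their median was 0.36 beside -0.001 over all genes. For UNC0638 in KO 3 of the 7 lay above 0 and 4 below, with a median of -0.007. Of 10 H3K9 demethylase genes, Kdm4b rose in KO in DMSO at 0.78 ± 0.17 and in UNC0638 at 0.79 ± 0.17, with adjusted p of 0.0130 and 0.0137 (limma), as 1 called gene of 10 where 6.63% and 4.47% of all genes were called. In KO against WT in DMSO all 10 demethylase genes lay above 0, with a median log2 fold change of 0.36 beside -0.03 over all genes. In UNC0638 the same contrast had 5 above 0 and 5 below, with a median of -0.02 beside -0.04 over all genes. Of 10 genes of the EHMT complex and other methyltransferases, Cdyl fell in KO in DMSO at -0.67 ± 0.18 and Zfp462, which brings EHMT2 to its targets, fell in KO in UNC0638 at -1.07 ± 0.29, with adjusted p of 0.0354 and 0.0487 (limma), again 1 of 10 in each of these contrasts. None of 12 SETDB1 and TRIM28 cofactor genes and none of 9 HP1 partner genes was called in any contrast, the smallest adjusted p being 0.106 and 0.147 (limma). In the difference of the UNC0638 effects all 9 HP1 partner genes lay below 0, with a median of -0.34 beside -0.003 over all genes. That contrast, UNC0638 in KO and KO against WT in UNC0638 all include KO UNC0638 replicate 3, which stood apart from its replicates. The list counts and the called list genes of these contrasts are given only with that library included.

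Over the 15 groups, with log2 levels centred in each experiment, Atf7ip had the widest range of the 10 genes at 1.29, more than that of 87.1% of 8220 genes, and Setdb1 the narrowest at 0.57. The genes most like Atf7ip over these 15 values were Brap (Pearson r of 0.96), Eif2ak3 (0.96) and Slx4 (0.95). Among the members Suv39h2 and Cbx5 were most alike, at an r of 0.95, and Atf7ip and Cbx3 most unlike, at -0.90. These values describe group means that share libraries and treatments, and the sorted groups make up much of the range.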

How the data were processed

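RNA-seq was measured in 45 libraries of 15 groups, grouped by the labels. Per the study's methods, the authors trimmed reads with Trim Galore 0.6.7, aligned them to mm10 with STAR 2.7.10 without introns and with each multimapping read written once, at a best-scoring location taken in random order among equals, counted them with TE Counts at default settings on GENCODE vM25 and scaled counts with DESeq2 1.34.0. The deposited values are these normalized counts, a signal on no fixed scale, as group means in 3 experiments and per library in the DPPA4 experiment. Deposited tables of the authors' comparisons hold fold changes and p-values and were not used.

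Such placement and alignment without introns can move reads between a gene and its pseudogenes, so Cbx3 was also summed with those named after it. In the DPPA4 experiment whole reads were recovered for 100% of values within 0.001. Genes past edgeR's filterByExpr were tested on log2(normalized count + 1) with limma 3.58.1 (R 4.3.3) with trend in 4 groups, with Benjamini-Hochberg adjustment and a threshold of 0.05. The fit was tested on simulated data. Alternatives were edgeR 4.0.16, DESeq2 1.42.0, TMM scaling, other filters and pseudocounts, the replicate block and leaving out libraries. Same-numbered libraries deviated together in every pair only for UNC0638 against DMSO in WT (r of 0.25, 0.10 and 0.43), which the labels do not explain. Gene coordinates and exon lengths came from GENCODE vM21 on GRCm38.

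The 10 genes and the lists were chosen with earlier results of these data known. Named genes were the 10, list genes past the call rule (2-fold in group means, at most 3 a list and comparison), markers beside a result, pseudogenes named after a member, and the 3 genes most correlated with the member of widest range over the 15 groups.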

Additional observations from a re-analysis of the deposited data

How the results depend on the processing

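Group means have no replicate error, so only the DPPA4 experiment could be tested, with 3 libraries a group. In the group-mean comparisons a pseudocount of 0.5, a minimum mean of 1 or 100, centring on the median of all genes and summing Cbx3 with its pseudogenes left the number of members past 1.5-fold within 1.5 times, except that centring put 1 member (Mphosph8, at -0.59) past it for dTAG against DMSO in mESCs. Centring also left 3 members past it in DMSO 2CLCs against mESCs, since Cbx3 then lay inside it. For all genes called, UNC0638 in KO gave 101 by limma, 44 by edgeR, 635 by DESeq2, 64 with a mean of at least 50, 12 with no filter, 0 with only the groups of the contrast and 346 with the replicate block, and 2 to 628 when 1 library was left out, without KO UNC0638 replicate 2 and without KO UNC0638 replicate 1. KO against WT in DMSO gave 1145 by limma, 1902 by DESeq2, 1996 with the replicate block and 312 to 1827 leaving out 1 library, and in UNC0638 772, 1433, 1244 and 188 to 848. UNC0638 in WT gave 19 by DESeq2, 1272 in the 6 WT libraries with the replicate block (a choice added after seeing the data, and 3 members called), and 0 to 1 leaving out 1 library, as did the difference of the UNC0638 effects. Members called for KO against WT in DMSO were 1 (Cbx1) with the replicate block, 1 (Cbx5) with only the groups of the contrast and 0 to 1 leaving out 1 library. In UNC0638 they were 0 by edgeR, with no filter and with only the groups of the contrast, 2 (Cbx5 and Cbx1) with the replicate block and 0 to 2 leaving out 1 library, and for UNC0638 in KO 0 to 1. Outside WT the replicate numbers did not pair the libraries in every case, with correlations from -0.09 to 0.15, so the block there is a number without a known meaning. Of 50 member effects 18 took either sign in some alternative, none of them called and none over 0.34 in size. The cause of these shifts was not tested.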
